A study of Triticum aestivum with 8 samples.

Results

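Narrow loci open at every stage are places in the wheat genome where a short accessible chromatin region (ACR) was listed at each of 4 stages of grain development. Overlap by 1 bp or more joined the ACRs of the 4 stage lists into 180461 loci, and 42864 of these loci (23.8%) held an ACR of every list. The narrow loci were chosen by presence and width, and a locus was kept where its ACRs summed to at most 500 bp in each list and where its width at DAP20 was more than 0.5 and less than 1.4 times that at DAP5. This left 5274 loci, which is 12.3% of the loci of every list and 2.92% of all loci (Wilson 95% interval 2.846 to 3.001%). Each of the 5274 loci held exactly 1 ACR in each list.

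The lists came from ATAC-seq of the bread wheat cultivar AiKang58 (AK58), grown in a greenhouse after vernalization, and the labels name no treatment and no genetic change. Endosperm, freed of the embryo, was taken at 5 and 9 days after fertilization, and whole seed at 15 and 20 days (DAP5, DAP9, DAP15 and DAP20). There were 8 sample records, 2 per stage, but 1 list per stage, so that the spread between replicates is unknown, and the change from DAP9 to DAP15 was also a change of tissue. An entry gave only chromosome, start and end, without read number or score, and no marker of a cell type could be checked. The lists held 101620 to 108846 ACRs on 21 chromosomes.

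ATAC-seq reads open chromatin through the Tn5 transposase, which inserts adapters where DNA is not wrapped around nucleosomes. In plants, open regions near genes and far from them often hold the short sequences that transcription factors bind. The endosperm is the storage tissue of the grain, in which starch and gluten proteins accumulate, while the whole seed also holds the embryo and the outer layers. Bread wheat joins the A, B and D subgenomes of 3 ancestral species, and chromosomes such as 1A, 1B and 1D form a homoeologous group. The genome build behind the coordinates was not given in the sources used here, so that genes, motifs and base sequence of the loci were not analysed here.

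Widths chose these loci and are therefore given as a description only. Narrow ACRs were common in each list, since ACRs of at most 500 bp made up 46.6% of the DAP9 list, 50.5% of the DAP5 list, 58.8% of the DAP15 list and 69.5% of the DAP20 list. Few of them belonged to a narrow locus of all stages. The share of the ACRs of at most 500 bp that did so was highest at DAP9 (11.1%), followed by DAP5 (9.59%), DAP15 (8.49%) and DAP20 (7.27%). Most narrow ACRs thus lay in loci that were missing from another list or wider in it.

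The mean width of the 5274 loci was largest at DAP9 (424 ± 74.5 bp, SD over loci), followed by DAP5 (413 ± 73.1 bp), DAP15 (404 ± 72.0 bp) and DAP20 (388 ± 66.0 bp). Behind these means stood a pair of widths, 350 and 500 bp. At DAP15, 64.0% of the loci measured 350 bp and 35.9% measured 500 bp, which left 3 loci with another width. At DAP9, 48.7% measured 350 bp and 46.5% measured 500 bp. At DAP5, the shares were 44.0% and 31.4%, and at DAP20 they were 46.2% and 12.3%. The remaining loci had a width off these steps, with 24.6% at DAP5 and 41.5% at DAP20, but only 4.82% at DAP9. Among the other loci of every list with 1 ACR at the stage, widths other than 350 bp plus a multiple of 150 bp made up 35.7% at DAP20 and 19.6% at DAP5, but 5.79% at DAP15 and 2.36% at DAP9. Off-step widths were thus a feature of the DAP5 and DAP20 lists in general, and what set them was not tested.

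**Figure D1:**
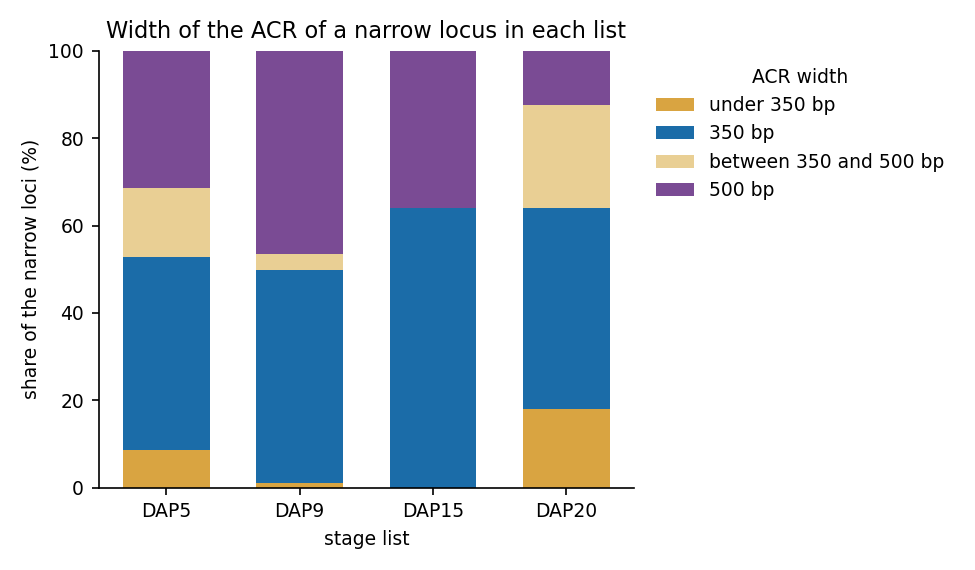
Stacked bars show the share of the 5274 narrow loci (%, vertical axis) whose ACR had a given width in each of the 4 stage lists (horizontal axis). The 350 bp class was the largest at each stage, and off-step widths were nearly absent at DAP15. The 500 bp class was 12.3% at DAP20, where the upper ratio limit left out loci of that width.

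The most frequent combination was 350 bp in all 4 lists, found in 594 loci (11.3%). Next came 350 bp with 500 bp at DAP9 alone (303 loci) and 500 bp in all lists (259 loci). In all, 853 loci (16.2%) had the same width in every list. From DAP5 to DAP9, 1902 loci became wider and 968 narrower, and from DAP9 to DAP15, 794 became wider and 1447 narrower. From DAP15 to DAP20, 959 became wider and 2195 narrower. The rule shaped the overall change from DAP5 to DAP20, in which 2280 loci were narrower and 1209 wider.

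At the limits of the rule, the ratio of the DAP20 width to the DAP5 width ran from 0.524 to 1.399 inside, with a median of 1. Outside lay 527 loci that were narrow in each list but had a ratio of 1.4 or more, and none lay at or below the lower limit. Of these 527 loci, 378 measured 350 bp at DAP5 and 500 bp at DAP20. The mirrored change, from 500 to 350 bp, was allowed, and 601 of the narrow loci showed it. On the side of the width limit, 3596 of the 5274 loci had a widest ACR of exactly 500 bp. Just outside, 26 loci of every list had a widest value above 500 bp by at most 50 bp, the smallest being 502 bp, while 4364 loci had a widest value of exactly 650 bp.

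The rule asked for ACRs of all 4 lists joined by overlap and limited in width. Shared bases are therefore given as a description only, without a comparison set. A stretch common to all 4 lists was present in 5246 loci (99.5%, 99.2 to 99.6%), and it measured at least 200 bp in 4993 loci (94.7%) and at least 300 bp in 2735 loci (51.9%). Its median was 301 bp, or 86.9% of the narrowest of the 4 ACRs. In 28 loci (0.531%, 0.368 to 0.766%), no base was common to all lists, since the ACRs were joined through a chain of overlaps. The whole locus, from the first start to the last end, had a median span of 512.5 bp, and the longest spanned 1199 bp.

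The locus with the longest common stretch was found on chromosome 2A, at 456621797 to 456622303. Its ACR spanned 456621804 to 456622303 at both DAP5 and DAP9, 456621797 to 456622296 at DAP15 and 456621799 to 456622298 at DAP20. All 4 ACRs were thus 500 bp wide and had 493 bp in common. It lay 122 kb from the nearest locus of any list. A locus on 5D (53421475 to 53421982) had 492 bp in common, and its 4 ACRs started at 53421483, 53421478, 53421475 and 53421478 in the order of the stages. On 6A (602713836 to 602714344), the common stretch was 491 bp and the starts were 602713838, 602713842, 602713836 and 602713845. A locus on 2B (458621350 to 458621851) also had 491 bp in common, with widths of 491 bp at DAP5, 500 bp at DAP9 and DAP15 and 496 bp at DAP20, and its midpoints lay within 4.5 bp of each other. These loci were picked for the length of their common stretch, so their close placement follows from the choice. The median common stretch of all narrow loci was 301 bp.

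On each of the 21 chromosomes, the locus with the longest common stretch had 471 to 493 bp in common (median 481 bp), and its midpoints were at most 29 bp apart. Of these 21 loci, 17 measured 500 bp in every list, which follows from ranking by a length that the width limits. They included 633056858 to 633057368 on 1B, 697433031 to 697433540 on 6B and 447858854 to 447859365 on 1D, with 489, 490 and 488 bp in common. The locus so ranked first on 4B (14533627 to 14534149, 477 bp in common) lay in the first 2.16% of the chromosome and 142 kb from any other locus. Among the 21 loci, 13 lay in the outer 20% at either chromosome end and 12 had another locus within 5 kb.

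Exact identity was rare all the same. In 4944 loci (93.7%), no 2 lists had the same start and end, in 323 loci a pair of lists did, and in 7 loci 3 lists did. No locus was identical in all 4 lists. Pairs of lists shared identical ACRs in 31 loci for DAP5 and DAP9, in 92 loci for DAP5 and DAP15 and in 79 loci for DAP15 and DAP20, with 34 to 65 loci for the other pairs. The 7 loci with 3 identical ACRs, chosen after their values were seen, fell into 2 kinds. In 4 of them, the DAP9 ACR was the one that differed, as on 2A at 696848502 to 696848851, where the DAP9 ACR lay 7 bp lower, and on 6A at 139218329 to 139218678, where the DAP9 ACR was 500 bp wide and enclosed the other 3. In the remaining 3, the DAP5 ACR differed, as on 6D, where DAP9, DAP15 and DAP20 gave 101720266 to 101720765 and the DAP5 ACR started 167 bp further on.

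To see how closely the lists placed the same locus, the distance between ACR midpoints was measured for the 6 pairs of lists. The median shift was 37.0 bp for DAP5 and DAP9, 40.0 bp for DAP5 and DAP15 and 32.0 bp for DAP5 and DAP20. It was 44.0 bp for DAP9 and DAP15, 37.0 bp for DAP9 and DAP20 and 36.0 bp for DAP15 and DAP20. Between 75.4% and 82.7% of the loci had midpoints at most 75 bp apart, and 2.45% to 4.23% had midpoints more than 150 bp apart. Of the bases in either ACR, 76.4% were shared for DAP5 and DAP20 and 72.7% for DAP9 and DAP15, the highest and the lowest of the 6 pairs. The rule limited the ratio of widths for DAP5 and DAP20 and for no other pair, so that the low shift of this pair was measured on loci chosen for like widths in it. Over the 5801 loci of at most 500 bp in each list with any ratio, the median shift of DAP5 and DAP20 was 34.0 bp and those of the other pairs were 37.0 to 44.0 bp.

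**Figure D2:**
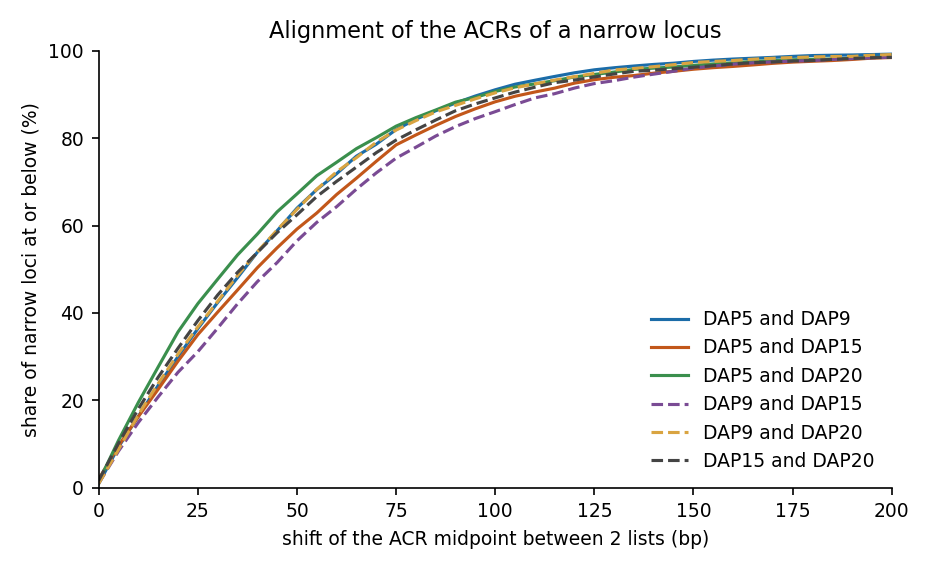
Each curve gives, for 1 pair of lists, the share of the 5274 narrow loci (%, vertical axis) whose ACR midpoints were at most a given distance apart (bp, horizontal axis). At 75 bp, the curve of DAP5 and DAP20 is the highest (82.7%) and that of DAP9 and DAP15 the lowest (75.4%).

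Set against DAP5 and DAP9, whose medians averaged 37.1 bp over the 7 homoeologous groups, the shift was larger for DAP9 and DAP15 by 6.46 ± 1.70 bp (SD over groups) in 7 of 7 groups. The exact sign-flip permutation p was 0.0156 (two-sided, adjusted 0.0391 over 5 tests), the smallest that 7 groups allow. The call was kept with means and without ACRs under 350 bp, and was lost in 3 other settings. With any width ratio, an alternative chosen after the data had been seen, the difference was 6.23 bp in 7 of 7 groups (adjusted exact permutation p = 0.0781). On the width steps in every list, also chosen after the data had been seen, it was 4.83 bp (adjusted exact permutation p = 0.0521). Without homoeologous group 4 it was 6.26 bp (adjusted exact permutation p = 0.0781, where 6 groups cannot give an unadjusted p under 0.0312). The overlap and the limit of 500 bp bound the shift of every pair. The share of loci at 500 bp also differed between lists (31.4% at DAP5, 46.5% at DAP9 and 35.9% at DAP15). These tests therefore do not separate placement from width.

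For DAP5 and DAP20, the pair whose widths the rule limited, the difference was -4.61 ± 3.17 bp and is given as a description. With any width ratio it was -3.33 ± 3.31 bp, lower in 5 of 7 groups, and missed the threshold (adjusted exact permutation p = 0.104). With means in place of medians under the rule, it was -1.39 bp. DAP5 and DAP15 differed by 3.38 ± 2.70 bp in 6 of 7 groups and missed the threshold (adjusted exact permutation p = 0.0521), but passed it with means (5.20 bp, adjusted exact permutation p = 0.0391). DAP15 and DAP20 differed by -1.25 ± 2.12 bp (adjusted exact permutation p = 0.215), and with means by 2.40 bp in the other direction (adjusted exact permutation p = 0.0781). DAP9 and DAP20 differed by -0.226 ± 1.47 bp (adjusted exact permutation p = 0.703), which with means turned to 0.443 bp. Differences of this size were small beside the ACRs themselves, and chromosomes are not biological replicates.

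The narrow loci were spread over all 21 chromosomes, with 1873 in the A subgenome, 1701 in B and 1700 in D. Per chromosome, the number ran from 110 on 4B and 179 on 1B to 323 on 7A and 325 on 2B. The density was highest in D, with 0.430 ± 0.0442 loci per Mb (mean ± SD over 7 chromosomes), followed by A with 0.378 ± 0.0336 and B with 0.325 ± 0.0856. It was highest on 3D (0.489 loci per Mb) and 1D (0.480), and lowest on 4B (0.163) and 1B (0.259). D exceeded B in 6 of 7 homoeologous groups, B minus D being -0.106 ± 0.0991 loci per Mb, and the exact sign-flip permutation p was 0.0469 (adjusted 0.0938 over 3 tests). D exceeded A in 5 of 7 groups, A minus D being -0.0525 ± 0.0551 (exact permutation p = 0.0625, adjusted 0.0938). A exceeded B by 0.0533 ± 0.0764 in 5 of 7 groups (exact permutation p = 0.125). No subgenome difference in density thus passed the threshold of 0.05. With a width limit of 650 bp, and also with a width ratio from 0.5 to 2, both contrasts with D passed it (adjusted exact permutation p = 0.0469 in each case). In number per chromosome, A minus D turned to 24.7 loci and B minus D to 0.143 loci, neither past the threshold (adjusted exact permutation p = 0.375 and 1).

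**Figure D3:**
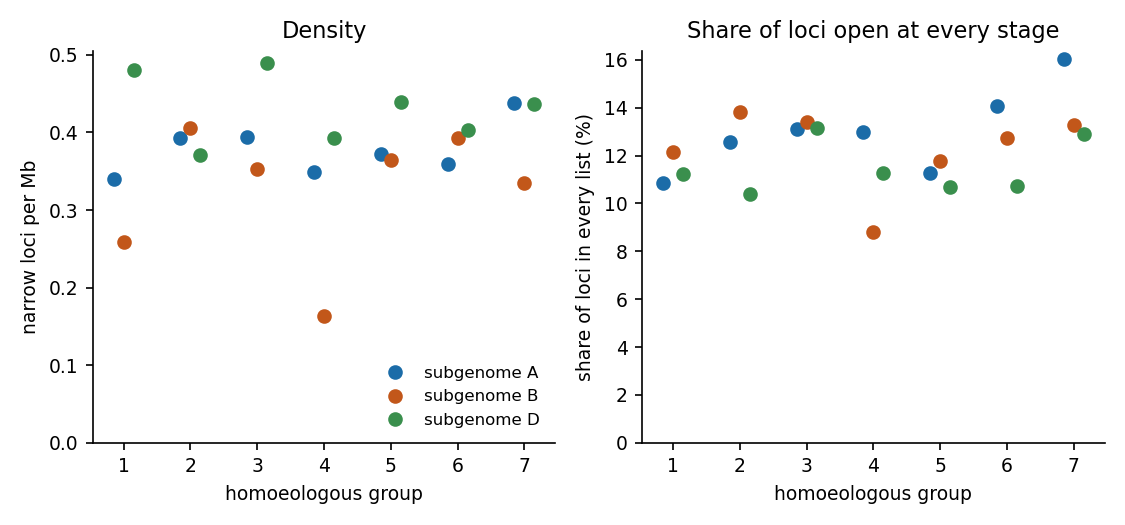
Points give, for the 21 chromosomes by homoeologous group (horizontal axis), the density of narrow loci (left, loci per Mb) and their share of the loci of every list (right, %), coloured by subgenome. Chromosome 4B lies lowest on both, at 0.163 loci per Mb and 8.79%.

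Relative to the loci of every list on the same chromosome, the order of the subgenomes was another. Narrow loci made up 11.5 ± 1.10% of them in D, 12.3 ± 1.69% in B and 13.0 ± 1.73% in A (mean ± SD over 7 chromosomes). A minus D was 1.503 ± 1.48 percentage points, with A higher in 5 of 7 groups (exact permutation p = 0.0625, adjusted 0.188). A minus B was 0.701 ± 2.12 points (A higher in 3 of 7) and B minus D was 0.803 ± 1.80 points (B higher in 6 of 7) (adjusted exact permutation p = 0.453 and 0.445). None of these differences passed the threshold. Chromosome 7A had the highest share, at 16.0% (323 of 2017 loci), and 4B the lowest, at 8.79% (110 of 1251 loci).

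In the DAP15 list, 4B held 3450 ACRs, or 3.27% of the list, against 4213 to 4339 ACRs (3.96 to 4.16%) in the other lists. A locus missing at DAP15 counts neither as a narrow locus nor as a locus of every list. Its part in the low density of 4B was not tested. Leaving out homoeologous group 4 kept each of the 6 subgenome comparisons short of the threshold, but moved some of their values. With 6 groups, the exact permutation p cannot fall under 0.0312. After adjustment over 3 tests, no comparison could then pass alone, so these misses do not show stability. In density, A minus B was then 0.0312 loci per Mb. In share, A minus B was 0.117 points and B minus D was 1.35 points (adjusted exact permutation p = 0.906 and 0.0938). Before adjustment, the exact permutation p of B minus D in share was 0.0312, the smallest possible. On 1B, the first 240 Mb held 31 loci of any list, 3 loci of every list and 1 narrow locus of the 179 on the chromosome. This stretch counted in the length behind the low density of 1B (0.259 loci per Mb) and so in the mean of B. Its part in both was not tested, and no alternative left out 1B or group 1.

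Within chromosomes, narrow loci followed the general pattern of open chromatin towards the ends, but less so than broad loci. Of the narrow loci, 59.4% lay in the outer 20% of the chromosome at either end (58.1 to 60.7%), against 61.7% of all loci. The share was 61.8% for the other loci of every list and 67.7% for the 5482 broad loci, which measured at least 1000 bp in each of the 4 lists and are part of the other loci. The difference from broad loci was -7.94 ± 4.34 percentage points over the homoeologous groups, with the narrow loci lower in 7 of 7 (exact sign-flip permutation p = 0.0156, adjusted 0.0208 over 12 tests). For the outer 30% it was -2.99 points and did not pass (adjusted exact permutation p = 0.153). The difference from the other loci of every list was -2.23 ± 2.57 points with narrow loci lower in 6 of 7 (exact permutation p = 0.0625 before and after adjustment). It passed for the outer 10% (-3.64 points, adjusted exact permutation p = 0.0341) and without group 4 (-2.78 points, adjusted exact permutation p = 0.0375). Within 5 Mb of a chromosome end lay 208 narrow loci (3.94%, 3.45 to 4.50%), against 6.60% of the broad loci and 4.24% of all loci. Chromosome 5A had the lowest share of narrow loci in the outer 20% (45.1%) and 4B the highest (70.9%).

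The position within the arms set narrow and broad loci apart more clearly, which is given here as a description chosen after the data had been seen. In 10 equal bins of chromosome length, narrow loci made up 17.1% of the loci of every list from 10 to 20% of the length, 16.1% from 20 to 30% and 16.5% from 60 to 70%. Their share was lowest from 40 to 50% (8.64%), and it was 12.4% in the first bin and 10.6% in the last. Broad loci had low shares in the same 3 bins (7.22, 7.80 and 8.75%) and from 50 to 60% (8.47%, where narrow loci made up 14.8%), and high ones from 40 to 50% (15.4%) and in the last bin (16.0%). The share of narrow loci was below the genome-wide 12.3% on 16 of 21 chromosomes from 40 to 50%, on 18 from 80 to 90%, and on 3 of 21 chromosomes from 10 to 20% and from 60 to 70%.

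**Figure D4:**
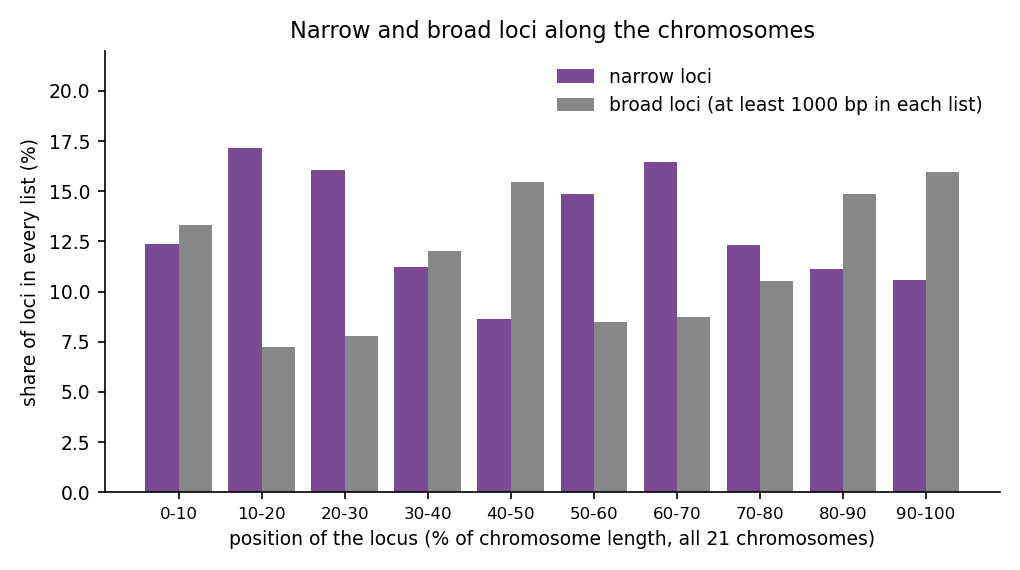
Bars give the share of the loci of every list (%, vertical axis) that were narrow or broad, for 10 equal bins of chromosome length (horizontal axis), with the 21 chromosomes pooled. Narrow loci reach 17.1% from 10 to 20% and fall to 8.64% from 40 to 50%, where broad loci reach 15.4%.

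Of 711 windows of 20 Mb with any locus, 28 held no narrow one. Of the 534 windows with at least 30 loci of every list, 9 held none, and these windows lay on 7 chromosomes, with centres between 35.3% and 64.2% of the chromosome length. They were 240 to 260 Mb on 1B, 300 to 320 Mb on 3A, 220 to 240 Mb on 3D, 300 to 320 and 320 to 340 Mb on 4B, 240 to 260 Mb on 5A, 280 to 300 and 300 to 320 Mb on 6A and 400 to 420 Mb on 7D. Together they held 327 loci of every list, of which 77 (23.5%) were broad, against 12.8% genome-wide, and 2 were narrow but past the ratio limit. The windows were picked for holding no narrow locus, while the genome-wide share counts the narrow loci in its base. Part of this contrast is therefore built in by the choice of windows. The window on 3D held 41 loci of every list and no narrow one. At the other extreme, the window from 460 to 480 Mb on 3A had 14 narrow loci among 38 loci of every list (36.8%) and no broad one. The largest number, 30 narrow loci among 274 (10.9%), was found from 460 to 480 Mb on 1D.

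To ask whether narrow loci stand alone, the distance to the nearest other locus was measured from edge to edge. A median narrow locus lay 2980 bp from the nearest locus of any list, compared with 2054 bp for the other loci of every list and 1262 bp for broad loci. To the nearest locus of every list, the medians were 44362.5, 16983.5 and 6981 bp. Another locus of any list within 5 kb was found for 61.9% of the narrow loci (60.6 to 63.2%), against 67.2% of all loci, 70.1% of the other loci of every list and 77.1% of broad loci. A locus of every list within 5 kb was found for 21.9% (20.8 to 23.1%), against 26.2% of all loci, 31.8% and 43.3%. Narrow loci thus had fewer neighbours by each of these edge-to-edge measures. Such distances also depend on the span of a locus, which the rule kept small. The mean span was 517 bp for narrow loci, 1478 bp for the other loci of every list and 2761 bp for broad loci. How much of the differences came from span was not tested.

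These differences held in each homoeologous group. Relative to the other loci of every list, the share with a neighbour of any list was lower, by -7.56 ± 1.76 percentage points, and the share with a neighbour of every list by -9.96 ± 2.44 points, in 7 of 7 groups each. The median distance was 0.161 ± 0.0443 larger on the log10 scale, also in 7 of 7 groups. Relative to broad loci, the differences were -14.3 ± 3.10 points, -21.2 ± 3.60 points and 0.361 ± 0.0729 on the log10 scale. Each of these 6 exact sign-flip permutation tests gave p = 0.0156 (adjusted 0.0208 over 12 tests), the smallest possible with 7 groups. Since span enters each edge-to-edge distance, these tests do not separate spacing from width.

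**Figure D5:**
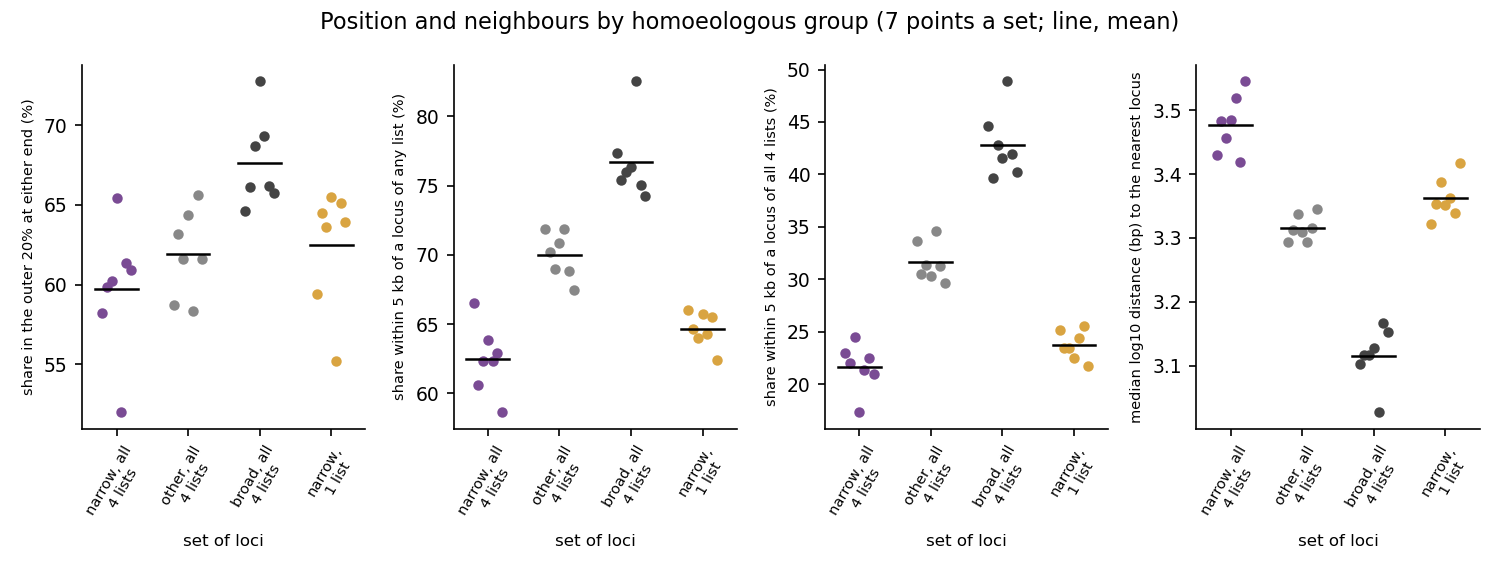
Points give the mean over the 3 chromosomes of a homoeologous group and lines the mean of the 7 groups, for narrow loci of all lists, other loci of all lists, broad loci of all lists and narrow loci of 1 list (horizontal axes). The panels plot the share in the outer 20% at either end, the shares with a neighbour within 5 kb (%) and the median log10 distance to the nearest locus of any list in bp, whose axes do not start at 0. Narrow loci of all lists average 62.4% with a neighbour of any list, against 70.0% and 76.7% for the other and the broad loci.

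The 62116 narrow loci found in 1 list only shared the limit of 500 bp with the narrow loci of all stages, and the comparison with them depended on the list. Their mean span was 380 bp, against 517 bp for the narrow loci of all stages, whose ACRs averaged 388 to 424 bp in a list. An ACR of another list that overlaps a locus joins it, while 1 just outside counts as a neighbour. Presence and span thus both enter the distances, and their part was not tested. Pooled over the lists, 62.4% of the narrow loci of 1 list lay in the outer 20%. Of these loci, 64.6% had a neighbour of any list within 5 kb and 23.7% had a neighbour of every list. The median distance to the nearest locus of narrow loci of all stages was larger by 0.115 ± 0.0312 on the log10 scale in 7 of 7 groups, and their share at the ends was lower by -2.76 ± 1.58 points in 7 of 7 groups (both exact permutation p = 0.0156, adjusted 0.0208). The neighbours of any list differed by -2.21 ± 1.52 points in 6 of 7 groups (exact permutation p = 0.0312, adjusted 0.0375). Without group 4 this difference was -2.26 points and no longer passed (adjusted exact permutation p = 0.0682). The neighbours of every list differed by -2.09 ± 1.98 points, which missed the threshold (exact permutation p = 0.0469, adjusted 0.0511). With ACRs within 500 bp merged, the difference in distance shrank to 0.0235 on the log10 scale (adjusted exact permutation p = 0.131) and that in neighbours of any list to -0.0842 points (adjusted exact permutation p = 1). Without ACRs under 350 bp, the difference at the ends was -0.8845 points (adjusted exact permutation p = 0.0511).

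Split by list after the data had been seen, the direction at the ends changed. Of the narrow loci listed only at DAP20, 70.2% lay in the outer 20%, as did 64.1% of those listed only at DAP5. For loci listed only at DAP9 or only at DAP15, the share was 56.5% and 54.5%. The narrow loci of all stages lay in between, lower than the DAP20 loci by -10.5 ± 2.68 points in 7 of 7 groups and higher than the DAP15 loci by 5.10 ± 2.25 points in 7 of 7 groups (both exact permutation p = 0.0156, adjusted 0.0278 over 16 tests). They also lay lower than the DAP5 loci by -4.37 ± 2.52 points in 6 of 7 groups (adjusted exact permutation p = 0.0417) and higher than the DAP9 loci by 3.19 ± 2.03 points in 7 of 7 groups (adjusted exact permutation p = 0.0278). The pooled difference at the ends therefore joins lists of opposite direction.

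Neighbours also differed in direction by list, along another line. Relative to loci listed only at DAP20, more of the narrow loci of all stages had a neighbour of any list, by 2.14 ± 1.35 points in 7 of 7 groups (adjusted exact permutation p = 0.0278). Fewer had one than among loci listed only at DAP5 (-5.97 ± 2.09 points) or only at DAP15 (-4.82 ± 1.86 points), in 7 of 7 groups each (adjusted exact permutation p = 0.0278). The difference from DAP9 loci was -0.588 ± 2.41 points (adjusted exact permutation p = 0.531). For neighbours of every list, the differences were 2.29 points from DAP20 loci and -3.26 points from DAP5 loci, in 6 of 7 groups each (adjusted exact permutation p = 0.0417). They were -7.96 points from DAP15 loci in 7 of 7 groups (adjusted exact permutation p = 0.0278) and 1.35 points from DAP9 loci (adjusted exact permutation p = 0.161). The pooled differences in neighbours thus also join lists of opposite direction.

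Distances did not change direction. The median distance to the nearest locus was 1854 bp for narrow loci listed only at DAP5 and 2004 bp at DAP15, against 2580 bp at DAP9 and 2947 bp at DAP20. Narrow loci of all stages exceeded those of DAP5 by 0.21 ± 0.0369 and those of DAP15 by 0.172 ± 0.0492 on the log10 scale, in 7 of 7 groups each (adjusted exact permutation p = 0.0278). From those of DAP20 they differed by 0.0099 ± 0.0240 (4 of 7 groups, adjusted exact permutation p = 0.333) and from those of DAP9 by 0.0595 ± 0.0578 (6 of 7 groups, adjusted exact permutation p = 0.0577). The median was 2668 bp for narrow loci in 2 lists (19378 loci) and 2953 bp for those in 3 lists (8393 loci). It was 2980 bp for those in all lists. At the chromosome ends lay 59.8% of those in 2 lists and 58.3% of those in 3 lists, against 59.4% of those in all lists. In the same order, 63.2% and 61.7%, against 61.9%, had a neighbour of any list. For neighbours of every list, the shares were 22.4% and 22.6%, against 21.9%. Narrow loci in 2 or 3 lists thus lay close to those in all lists in position and neighbours as well as in distance. These values were not tested.

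Narrow loci also lay next to each other, given here as a description. Along the chromosomes, the locus of every list that followed a narrow locus was itself narrow in 919 of 5271 cases (17.4%, 16.4 to 18.5%), and the one that followed another locus in 4353 of 37572 cases (11.6%, 11.3 to 11.9%). The first share was higher on 21 of 21 chromosomes, by the least on 5B (12.7 against 11.7%) and 7B (14.4 against 13.1%). In all, 3600 narrow loci (68.3%) had no narrow locus as the next locus of every list on either side. Narrow loci made up 12.3% of the loci of every list, and the share that random placement would leave was not computed. The longest run of successive narrow loci was 6, on 2A from 508075370 to 509173225.

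Of the windows of 1 Mb with a narrow locus, 2991 held 1 and 731 held 2, and the largest number was 8, from 798 to 799 Mb on 3B. This window, at 96.1% of the chromosome length, held 55 loci of any list and 23 of every list. Its narrow loci showed how unlike such neighbours can be. The locus at 798417777 to 798418312 had 442 bp in common, with ACRs of 500 bp at DAP5, DAP15 and DAP20 and of 478 bp at DAP9. The locus at 798324080 to 798325015, in turn, had no common base, as its DAP5 ACR ended at 798324554 and its DAP20 ACR, of 268 bp, started at 798324748. At 798446860 to 798447377, the widths were 500, 500, 350 and 299 bp in the order of the stages, and 179 bp were in common. The other 5 loci had 280 to 350 bp in common.

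The most isolated narrow loci lay in the interior of chromosomes. On 4A, the locus at 373118573 to 373119027 was 1.15 Mb from any other locus and lay at 50.1% of the length. Its ACRs measured 350 bp at DAP5, DAP15 and DAP20 and 326 bp at DAP9, with 221 bp in common. The locus at 220572022 to 220572563 on 6B lay 990 kb from any other locus, and that at 255533130 to 255533649 on 4D lay 722 kb away, with 349 and 408 bp in common. The largest shift was that of a locus on 2B (190058081 to 190059229), where the DAP15 ACR ended at 190058430 and the DAP20 ACR started at 190058907. The midpoints of these ACRs were 812.5 bp apart, and the DAP5 and DAP9 ACRs linked them.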

How the data were processed

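ATAC-seq was performed on 8 samples of developing grain, of which 4 came with a file. The authors trimmed the reads (fastp in the study's methods, Trimmomatic 0.36 in the submitters' processing notes), aligned them with Bowtie2, removed duplicates and called peaks with MACS2. Peaks were split into overlapping bins, bins over a cutoff of Tn5 density were merged, and blacklisted or organelle-like peaks were dropped. The cutoff, the genome build and any pooling of replicates were not given in the sources used here. The deposited values are other than counts: start and end in bp, converted here to positions counted from 1. Depth is unknown, and how the steps above set widths was not tested.

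ACRs overlapping by 1 bp were merged into loci. The largest end coordinate stood in for chromosome length. Shares have Wilson 95% intervals, which cover counting error only. Differences were averaged over the 3 chromosomes of each homoeologous group and tested with two-sided exact sign-flip permutation tests over the 7 groups, with Benjamini-Hochberg adjustment and a threshold of 0.05. These p-values measure how even a difference was over chromosomes of the same lists, not over biological replicates. The members and tests were chosen with earlier results of these data known. Loci named were, by rule, the member with the longest common stretch on each chromosome, the member farthest from any locus in each subgenome, the members of the fullest 1 Mb window, the member with the largest midpoint shift, and the chromosomes with the highest and lowest values. Others were chosen after their values were seen. Alternatives were other merging, width limits, ratio limits, end and neighbour distances, a minimum width of 350 bp and leaving out 4B or group 4. Scripts ran in Python 3.11.15 with scipy 1.17.1, pandas 2.3.3 and numpy 2.4.6, and figures were drawn with matplotlib 3.10.9. On simulated data of 18900 sites, all 1523 simulated members were found. These sites lay apart and held at most 1 ACR per list, so chains of overlap and loci with several ACRs were not checked. Genes, promoters and base composition were planned but not analysed here, since the gene table at hand was of another assembly than could be matched to the lists.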

Additional observations from a re-analysis of the deposited data

Results flagged for a closer look

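The share of narrow loci among the loci of every list was 8.79% on chromosome 4B, far below the next lowest of the 7 chromosomes of the B subgenome, which was 11.8% on 5B. The gap was 0.596 of the range of the 7 values, above Dixon's 95% critical value for that number. It was the only one of 24 such gaps, on either side of 4 measures in 3 subgenomes, to exceed it, and chance alone passes about 5% of groups. Chromosomes here are not samples.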

How the results depend on the processing

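No paired analysis was possible because each stage had a single list, and none was left out. Alternatives needing a genome, an annotation or a reference length were not run. The alternatives of loci on the width steps in every list, and of shifts with any width ratio, were chosen after seeing the data. The cause of each change was not tested, except that tighter limits keep fewer loci by construction. Depth is unknown.

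The number of narrow loci was 1337 with a limit of 450 bp, 9520 with 650 bp and 2317 on the width steps, and stayed within 1.5 times in the 7 other alternatives.

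In density, A minus D and B minus D passed the threshold with 650 bp (-0.124 and -0.204 loci per Mb) and with a ratio from 0.5 to 2 (-0.0659 and -0.126), and turned to 24.7 and 0.143 as numbers per chromosome. The other 15 values, and all 18 for the share of loci of every list, kept direction and side of the threshold.

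For position and neighbours, 75 of 90 values did so. Against narrow loci of 1 list, these lost the call: with ACRs within 500 bp merged, neighbours of any list (-0.0842 points) and distance (0.0235 on the log10 scale), without ACRs under 350 bp, the ends (-0.8845), and neighbours of any list without group 4 (-2.26) and within 10 kb (-0.215). Neighbours of every list gained it without ACRs under 350 bp (-3.30), with 650 bp (-1.73), with a ratio from 0.5 to 2 (-2.35), on the width steps (-2.2625) and within 2 kb (-1.64). Against other loci of every list, the ends gained it with 650 bp (-3.20), without group 4 (-2.78), on the width steps (-3.86) and for the outer 10% (-3.64). Against broad loci, the ends lost it for the outer 30% (-2.99).

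For shifts, with means DAP5 and DAP15 gained the call (5.20 bp), DAP5 and DAP20 lost it (-1.39 bp), and DAP9 and DAP20 (0.443 bp) and DAP15 and DAP20 (2.40 bp) changed sign. Without group 4, DAP5 and DAP20 (-5.10 bp) and DAP9 and DAP15 (6.26 bp) lost it, as they did on the width steps (-7.43 and 4.83 bp), where DAP9 and DAP20 changed sign (1.24 bp), and with any width ratio (-3.33 and 6.23 bp). Without ACRs under 350 bp, DAP5 and DAP15 gained it (4.13 bp).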
